A study of Mus musculus with 10 samples.

Results

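The genes described here encode enzymes that metabolise drugs, inhaled chemicals and other foreign compounds (xenobiotics) in the mouse lung. They were chosen by gene symbol alone, without regard to any measured value. The choice took cytochrome P450 families 1 to 4 (Cyp1 to Cyp4), the flavin-containing monooxygenases (Fmo), the Aldh1 aldehyde dehydrogenases, the Ces1 and Ces2 carboxylesterases, the Gsta, Gstm, Gsto, Gstp and Gstt glutathione transferases, the sulfotransferases (Sult) and the Ugt1 and Ugt2 glucuronosyltransferases. Of 203 symbols that met the rule, 30 pseudogenes were dropped, which left 173 genes of the 53465 in the count files (0.324%). The symbol rule also took Aldh16a1 and Aldh18a1, which belong to other aldehyde dehydrogenase families, and Cyp4x1os, an antisense RNA.

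Lung RNA from 10 BALB/c mice was sequenced, with 5 libraries from controls, described as untreated, and 5 from mice challenged with IL-33. IL-33 is a cytokine released by damaged epithelium that drives type 2 inflammation. The challenged mice received 1 µg in 35 µL through the nose once daily for 5 days, with tissue collected 24 hours later. Neither age nor sex is named in the labels, nor whether controls were given vehicle without IL-33, so the instillation itself cannot be told apart from IL-33. The comparison addresses how airway IL-33 changed the lung transcriptome. No allele or transgene is named for either group.

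Foreign compounds are handled in successive steps. Phase 1 enzymes (P450s, flavin monooxygenases, aldehyde dehydrogenases and esterases) oxidise or hydrolyse a compound, and phase 2 enzymes (glutathione transferases, sulfotransferases and glucuronosyltransferases) attach a soluble group to it before transporters export it. In mouse airways much of this capacity lies in club cells, secretory cells of the bronchioles that are rich in smooth endoplasmic reticulum, and their P450s turn inhaled chemicals such as naphthalene into reactive products.

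Libraries held 7805175 to 13767118 reads counted in genes. Levels are counts per 1000000 reads in genes (CPM), scaled with TMM factors, as mean ± SD of 5 libraries. Changes are log2 ratios of IL-33 to control libraries, given as ± SE, from edgeR's quasi-likelihood test, and "rose" and "fell" are used where the Benjamini-Hochberg adjusted p over 15695 tested genes was below 0.05. Of all tested genes 69.9% passed, 35.1% higher and 34.8% lower, so passing the test does not set a gene apart in this comparison. Short genes tended to be higher in IL-33 libraries. The median log2 fold change was 0.72 in the tenth of genes with the shortest exonic length (48 to 1527 bases) and -0.31 in the tenth with the longest, so each change was also computed with offsets that remove each library's trend on length and GC content. Multiply aligned reads made up 15.0% to 16.2% of records in controls and 20% to 22.8% in IL-33 libraries. In whole lung, fewer cells of a type and less RNA per cell cannot be told apart.

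Of the 173 genes, 64 had enough reads to be tested. Among them 16 rose (25.0%) and 34 fell (53.1%), and 14 did not pass. The median log2 fold change of the 64 was -0.55, beside -0.01 over all tested genes. At least 2-fold falls were found in 19 of the 64 (29.7%), beside 8.79% of all tested genes, and at least 2-fold rises in 7 (10.9%), beside 14.5%. The 5 control and 5 IL-33 libraries did not overlap for 40 genes (62.5%), beside 56.5% of all tested genes, and 27 of these 40 were lower in every IL-33 library. With the length and GC offsets 14 rose and 37 fell, where the shares over all tested genes were 35.7% higher and 32.6% lower, and the median was -0.66. Without Aldh16a1, Aldh18a1 and Cyp4x1os, 14 of 62 rose and 34 fell.

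**Figure D1:**
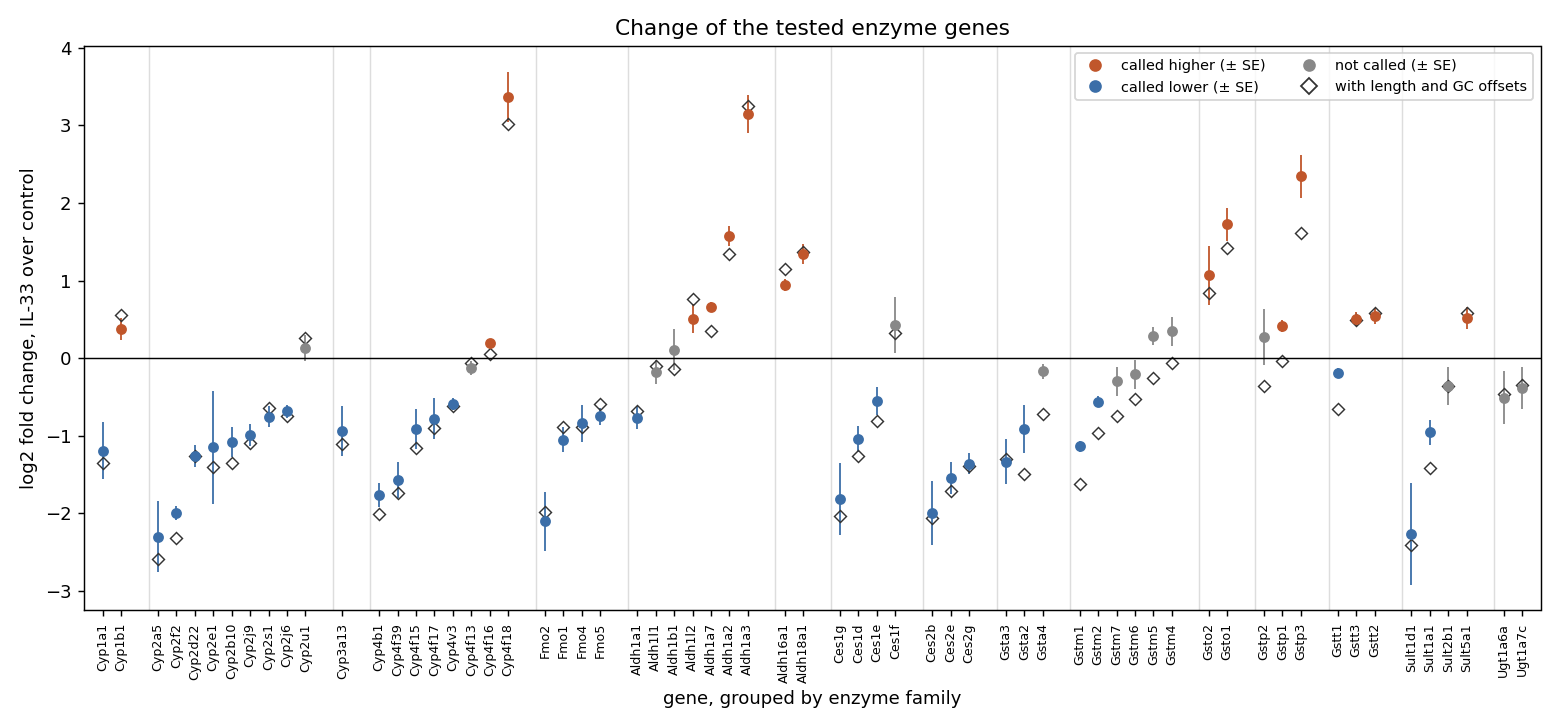
Log2 fold change (IL-33 over control) of 63 of the 64 tested genes, grouped by enzyme family; circles are the edgeR estimates with SE over 5 and 5 libraries, coloured by call, and open diamonds are the values with length and GC offsets. The 4 Fmo genes drawn and 8 of 9 tested Cyp2 genes lie below 0, while Cyp4f18, Aldh1a3 and Gstp3 stand highest.

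Phase 1 genes mostly fell. Of 39 tested phase 1 genes of the P450, Fmo, Aldh1 and Ces families, 27 fell (69.2%) and 7 rose (17.9%), with a median of -0.84. Of all tested genes 34.8% fell and 35.1% rose. Of 23 tested phase 2 genes, 7 fell (30.4%), 7 rose (30.4%) and 9 did not pass, with a median of -0.19, and these shares were near those over all tested genes. With the offsets the phase 2 counts were 10 lower and 6 higher, and the phase 1 counts 27 lower and 6 higher. The difference between the steps was not tested. In reads, the 173 genes together took 0.753% to 0.956% of counted reads in controls and 0.318% to 0.438% in IL-33 libraries.

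A few genes supplied most of these reads. Per length, as CPM per kilobase of exon (RPKM), Cyp2f2 stood first in controls at 1008.7 ± 50.9, and its range did not overlap that of the next gene. Gstm1 (260.0), Fmo2 (259), Cyp4b1 (248), Ces1d (220.0), Aldh1a1 (205) and Cyp2b10 (138) followed, and the ranges of neighbours in this order overlapped from Gstm1 to Cyp2b10. Gstm2 came next at 90.3 RPKM, below the range of Cyp2b10. All of these 8 genes fell. In IL-33 libraries Cyp2f2 stood at 252 ± 34.4 RPKM.

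**Figure D2:**
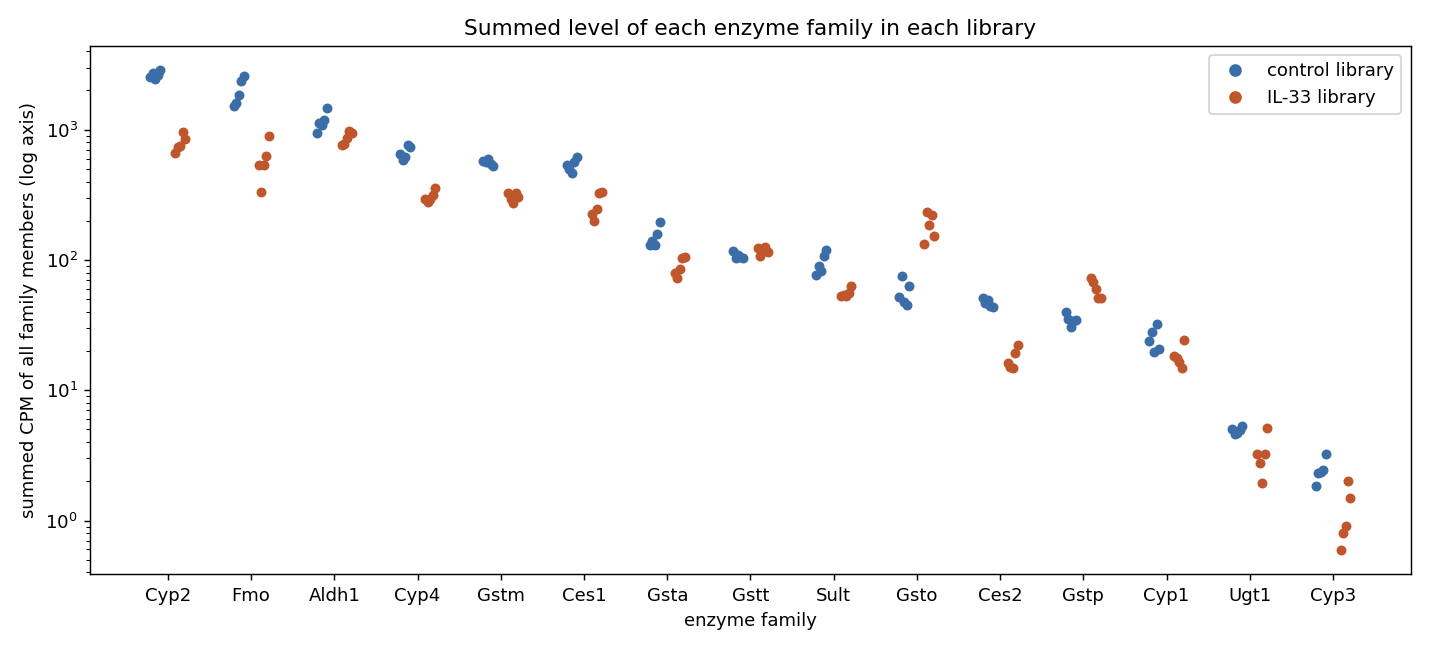
Summed CPM of all members of each enzyme family (log axis), 1 point per library, controls beside IL-33 libraries. The Cyp2 sums are 2456.2 to 2875.5 in controls and 660.0 to 965 in IL-33 libraries, the Fmo sums 1532.5 to 2603.0 and 332 to 894, and the Gsto sums move the other way, from 44.9 to 75.4 up to 133 to 232.

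The Cyp1 family is the classical target of the aryl hydrocarbon receptor (AHR), a sensor of dioxins and polycyclic hydrocarbons. Cyp1a1, which oxidises polycyclic hydrocarbons, had 13.1, 18.3, 10.9, 25.2 and 12.1 CPM in controls 1 to 5 and 8.78, 4.13, 5.32, 4.36 and 11.7 CPM in IL-33 libraries 1 to 5. It fell (log2 fold change -1.19 ± 0.37, adjusted p = 0.00356), although the highest IL-33 library lay above the lowest control. Cyp1b1, an extrahepatic P450 that also hydroxylates oestrogens, had 10.5, 9.63, 8.56, 6.83 and 8.45 CPM in controls and 9.47, 13.5, 11.2, 10.5 and 12.6 CPM in IL-33 libraries. It rose by 0.38 ± 0.14 with overlapping groups, and lost the call without IL-33 library 2 or 5 or control 3, 4 or 5 (adjusted p 0.0551 to 0.0791). Cyp1a2, a liver P450, had 1 read in the 10 libraries.

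Because AHR binds DNA at a short core, the promoters of both genes were searched for GCGTG on either strand over the 250 bases before the RefSeq gene start (GRCm38.p6). Promoters matched 144 of the 173 genes. The core was found in 25 of the 144 (17.4%) and in 30.9% of all 27025 genes with a promoter (28.2% when each of 32851 promoters is counted). It stood in 6 of the 13 genes that rose and had a promoter, 8 of the 28 that fell and 2 of 11 that did not pass. The stretches that hold it in Cyp1a1 and Cyp1b1 are shown because the genes moved in opposite directions, with the core, or its reverse complement, in capitals. That of Cyp1a1 is chr9:57697531-57697590 on the plus strand, with the core 54 bases before the start, and that of Cyp1b1 is chr17:79715106-79715165 on the minus strand, with the core 76 bases before the start.
Cyp1a1: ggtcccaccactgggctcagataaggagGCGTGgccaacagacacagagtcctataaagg
Cyp1b1: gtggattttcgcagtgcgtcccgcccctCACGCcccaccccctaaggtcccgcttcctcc
The letters TATAAA, on either strand and anywhere in the 250 bases, stood before 42 of the 144 genes (29.2%), beside 14.3% of all genes with a promoter. A match of letters describes the window and says nothing of binding.

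Cyp2 is the largest family, with 49 genes, of which 9 were tested and 8 fell (88.9%), beside 34.8% of all tested genes. Cyp2f2 (ENSMUSG00000052974, chr7:27119909-27133660 in GRCm38), the club cell P450 that activates naphthalene, had 2063.6, 2088.2, 1897.7, 1992.7 and 2170.9 CPM in controls. Its IL-33 libraries held 438, 477, 484, 619 and 534 CPM. Every IL-33 library lay far below every control, and the controls spread little around their mean. The log2 fold change was -2.0 ± 0.09 (adjusted p = 5.6e-09), and -2.32 with the offsets.

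Cyp2a5, which oxidises nicotine and coumarin, had 38.9, 118.0, 45.2, 55.2 and 97.3 CPM in controls and 5.33, 16.3, 14.3, 19.5 and 15.9 CPM in IL-33 libraries. The groups did not overlap, and controls 2 and 5 stood above the other controls. It fell by 2.30 ± 0.45 on the log2 scale, and by 1.71 with controls 2 and 5 both left out. Of its 75-base windows 22.3% also occur in another gene. Its near copy Cyp2a4, with 98.5% identity over 1485 coding bases, had 9 reads in all.

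The remaining Cyp2 genes changed less. Cyp2b10, a P450 induced by the nuclear receptor CAR, went from 292 ± 60.3 to 138 ± 29.9 CPM and Cyp2d22 from 68.4 ± 6.21 to 28.4 ± 5.30, each without overlap. Cyp2s1 fell by 0.75, the arachidonic acid epoxygenases Cyp2j6 and Cyp2j9 fell by 0.69 and 0.99, and all 3 were lower in every IL-33 library. Cyp2u1 did not pass, at 3.50 ± 0.37 against 3.85 ± 0.94 CPM. Cyp2e1, which oxidises ethanol, had 11.2, 19.0, 9.80, 11.1 and 27.3 CPM in controls and 0.789, 6.08, 4.54, 8.80 and 13.9 in IL-33 libraries, with overlap. Its fall of 1.15 ± 0.73 (adjusted p = 0.0425) was lost without control 2 or 5 or IL-33 library 2, 3 or 4 (adjusted p 0.051 to 0.127).

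Most Cyp2 and Cyp3 genes were too low to test. Of the 49 Cyp2 genes 16 had no read, and Cyp2c29 had 1. In the Cyp3 family, the main drug-oxidising P450s of liver, 5 of 9 had no read and Cyp3a11 had 1. Cyp3a13 was the one Cyp3 gene tested, with 1.63, 2.30, 2.25, 2.36 and 3.23 CPM in controls and 0.592, 0.804, 0.908, 2.02 and 1.49 CPM in IL-33 libraries. It fell by 0.94 ± 0.33 with overlapping groups, and with controls 2 and 5 both left out its adjusted p was 0.0821.

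Cyp4 enzymes hydroxylate fatty acids and eicosanoids, and this family held the largest rise among the 64 genes. Cyp4b1, a lung P450 that activates furan compounds such as ipomeanol, had 538, 478, 506, 642 and 633 CPM in controls and 160, 120, 156, 174 and 211 CPM in IL-33 libraries. It fell by 1.77 ± 0.16 without overlap. Cyp4f18 (ENSMUSG00000003484, chr8:71988482-72009626), a leukotriene B4 hydroxylase of leukocytes, had 10.2, 3.50, 8.0, 4.46 and 3.61 CPM in controls and 54.7, 80.9, 63.3, 56.7 and 58.8 CPM in IL-33 libraries. Every IL-33 library lay above every control, and the log2 fold change was 3.37 ± 0.33 (adjusted p = 1.36e-07). Summed macrophage markers moved the same way, from 393 to 615 CPM in controls up to 3598.7 to 4558.5 CPM. Most of that sum is Chil3, a chitinase-like protein, and the other 7 markers summed to 250 to 304 CPM in controls and 375 to 496 CPM in IL-33 libraries. Of the 8 markers 5 rose, while Marco, Siglecf and Mertk fell. Of 6 lymphocyte markers 5 rose as well, with sums of 174 to 381 CPM in controls and 618 to 719 CPM in IL-33 libraries. The part of either cell type in the rise of Cyp4f18 was not tested.

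The other Cyp4f genes did not follow Cyp4f18, which is encoded on chromosome 8. Of the 5 tested genes in the Cyp4f cluster at chr17:32452723-32947402, Cyp4f15, Cyp4f17 and Cyp4f39 fell by 0.91, 0.78 and 1.57. Cyp4f13 did not pass (-0.13 ± 0.09). Cyp4f16 rose by 0.20 ± 0.05 (17.9 ± 0.52 against 20.6 ± 1.34 CPM), and this call was lost with the offsets (0.06) and without any 1 of controls 1 to 5 or IL-33 libraries 1 to 3 (adjusted p 0.0533 to 0.0809). Cyp4v3, a fatty acid hydroxylase, fell by 0.59 ± 0.07 without overlap. Cyp4a12b, a fatty acid hydroxylase, was too low to test, with 0.919, 5.03, 1.35, 0.438 and 4.37 CPM in controls, 0 in IL-33 libraries 1 to 3, and 0.312 and 0.371 CPM in the other two. A count of 0 allows up to 3 reads, which stand for 0.212 to 0.389 CPM depending on the library.

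**Figure D3:**
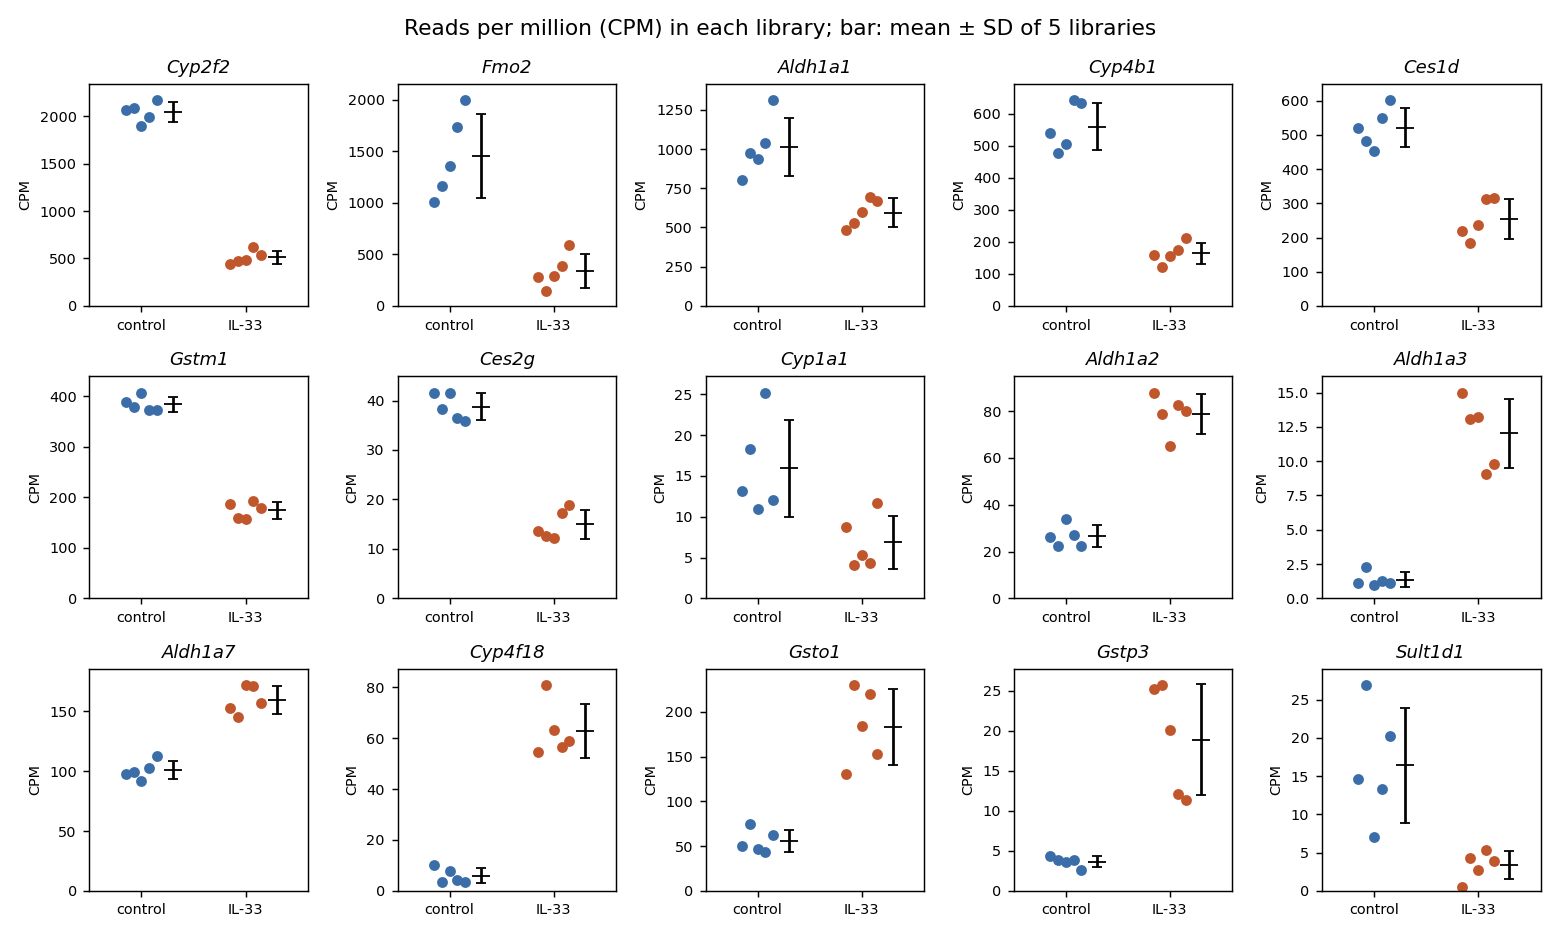
CPM of 15 genes in each library, libraries 1 to 5 from left to right within each group, with the mean ± SD of 5 libraries as a black bar. For 14 of the 15 the groups do not overlap, and for Cyp1a1 the highest IL-33 library (11.7) lies above the lowest control (10.9).

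Flavin-containing monooxygenases oxidise nitrogen and sulfur atoms in drugs and amines, and Fmo1, Fmo2, Fmo4 and Fmo5 fell. Fmo2, the main lung isoform, had 1005.2, 1159.7, 1356.4, 1735.3 and 1995.3 CPM in controls and 278, 145, 288, 388 and 589 CPM in IL-33 libraries. Controls ranged widely, but the lowest of them was above the highest IL-33 library, and the fall was 2.10 ± 0.38.

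Fmo1 went from 440.0 ± 64.2 to 212 ± 39.3 CPM, Fmo4 from 10.4 ± 3.44 to 5.77 ± 1.11 and Fmo5 from 46.5 ± 6.19 to 27.6 ± 3.07. Fmo1, Fmo2 and Fmo4 are on chromosome 1 and Fmo5 is on chromosome 3. The IL-33 libraries lay below the controls for Fmo1, Fmo4 and Fmo5 without overlap, and the falls were 1.05, 0.84 and 0.75 on the log2 scale. Fmo6 had 35 reads and Fmo9 none.

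Aldh1 enzymes oxidise retinal to retinoic acid and clear reactive aldehydes, and this was the 1 phase 1 family with more rises than falls. Of 7 tested, 4 rose (57.1%) and 1 fell (14.3%), beside 35.1% and 34.8% of all tested genes. Aldh1a1, the most abundant, had 806, 974, 936, 1037.1 and 1312.8 CPM in controls and 484, 526, 601, 695 and 672 CPM in IL-33 libraries. It fell by 0.77 ± 0.15 without overlap. Its neighbour on chromosome 19, Aldh1a7, had 97.6, 99.2, 91.9, 103 and 113 CPM in controls and 153, 145, 172, 171 and 157 CPM in IL-33 libraries. It rose by 0.66 ± 0.07 without overlap, and by 0.35 with the offsets. The coding sequences are 91.6% identical over 1506 bases, but 3.49% of 75-base windows are identical. Per length the distance narrowed from 205 against 48.9 RPKM in controls to 121 against 77.2 RPKM in IL-33 libraries.

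The other retinal dehydrogenases rose. Aldh1a2 had 26.4, 22.5, 34.0, 27.0 and 22.5 CPM in controls and 87.9, 78.8, 65.1, 82.6 and 79.9 CPM in IL-33 libraries, a log2 fold change of 1.58 ± 0.13. Aldh1a3 (ENSMUSG00000015134, chr7:66390890-66427517) had 1.13, 2.30, 1.01, 1.23 and 1.14 CPM in controls and 15.0, 13.1, 13.2, 9.03 and 9.81 CPM in IL-33 libraries. All 5 IL-33 libraries lay above all controls for both genes, and Aldh1a3 changed by 3.15 ± 0.24 (adjusted p = 1.12e-07).

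The folate enzyme Aldh1l2 rose by 0.51 ± 0.19 with overlap, a call lost without control 1, 3, 4 or 5 or IL-33 library 4 or 5 (adjusted p 0.0515 to 0.115). Its cytosolic counterpart Aldh1l1 (-0.18 ± 0.15) and the mitochondrial Aldh1b1 (0.11 ± 0.27) did not pass. The 2 genes of other families both rose without overlap. Aldh16a1 had 23.8 to 28.7 CPM in controls (median 26.1) and 44.4 to 55.6 in IL-33 libraries (median 50.4). Aldh18a1, which makes the proline precursor pyrroline-5-carboxylate, had 13.3, 11.5, 15.5, 12.8 and 9.49 CPM in controls and 29.9, 36.5, 32.0, 32.0 and 28.5 in IL-33 libraries, a rise of 1.34 ± 0.13.

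Carboxylesterases hydrolyse ester drugs and lipids, and 6 of the 7 tested fell (85.7%), beside 34.8% of all tested genes. Ces1d, a triacylglycerol hydrolase, had 521, 483, 454, 549 and 602 CPM in controls and 220.0, 185, 236, 312 and 317 CPM in IL-33 libraries, a fall of 1.04 ± 0.17 without overlap. Ces1g had 2.12, 2.41, 2.37, 2.28 and 5.50 CPM in controls and 0.493, 0.459, 0.259, 1.17 and 1.41 CPM in IL-33 libraries, and fell by 1.82 ± 0.46. Control 5 stood apart from the other controls for Ces1g, though each of those was above every IL-33 library. Ces1e fell by 0.55 ± 0.18 with overlap, and Ces1f did not pass (0.43 ± 0.36) but was higher without IL-33 library 1 (0.62, adjusted p = 0.0337).

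All 3 tested Ces2 genes fell without overlap, where 56.5% of all tested genes did not overlap in either direction. Ces2g had 41.6, 38.3, 41.6, 36.4 and 35.8 CPM in controls and 13.7, 12.6, 12.3, 17.2 and 18.9 CPM in IL-33 libraries. The fall was 1.36 ± 0.13. Ces2b, with 2.76, 1.53, 1.91, 2.54 and 2.09 against 0.0987, 0.459, 0.519, 0.701 and 0.817 CPM, fell by 2.0 ± 0.42, and Ces2e by 1.54 ± 0.20. Every tested Ces gene is on chromosome 8.

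Glutathione transferases couple glutathione to electrophiles. Of 17 tested genes 6 rose (35.3%), 5 fell (29.4%) and 6 did not pass, shares near those over all tested genes, and their summed level went from 911 ± 14.8 to 759 ± 42.9 CPM. These genes are short, with a median exonic length of 1601 bases among those tested, where the length trend bears most. With the offsets 5 rose and 8 fell. Calls gained with the offsets were falls of Gsta4 (-0.72), Gstm6 (-0.52) and Gstm7 (-0.75).

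In the mu class, Gstm1 (ENSMUSG00000058135, chr3:108012255-108017973) had 388, 379, 407, 372 and 372 CPM in controls and 186, 158, 156, 193 and 179 CPM in IL-33 libraries. Both groups were tight and far apart, and the fall was 1.14 ± 0.07 (adjusted p = 4.79e-08), or 1.63 with the offsets. Gstm2 went from 152 ± 13 to 103 ± 6.72 CPM, a fall of 0.56 without overlap. Gstm4 (0.35), Gstm5 (0.29), Gstm6 (-0.21) and Gstm7 (-0.30), with 2.67 to 13.4 CPM over all libraries, did not pass. Without 1 IL-33 library the calls for Gstm4 (library 3, 0.44, adjusted p = 0.029), Gstm5 (library 5, 0.34, adjusted p = 0.037) and Gstm7 (library 2, -0.48, adjusted p = 0.0182) were gained. The 7 Gstm genes lie at chr3:107895821-108044894, so 1 cluster held both falls and genes that did not pass.

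In the alpha class, Gsta3 had 72.2, 74.4, 77.7, 99.3 and 124 CPM in controls and 32.1, 18.6, 31.6, 42.0 and 51.6 CPM in IL-33 libraries. It fell by 1.33 ± 0.29 without overlap. Gsta4, which detoxifies the lipid aldehyde 4-hydroxynonenal, did not pass (59.6 ± 6.36 against 52.9 ± 5.03 CPM), though it did without control 3 or IL-33 library 4 (-0.23 in each, adjusted p 0.0423 and 0.0374). Gsta2 fell by 0.91 ± 0.31 with overlap, and not without control 5 (-0.68, adjusted p = 0.0541), while 36.6% of its 75-base windows occur in another gene.

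The omega class rose. Gsto1 (ENSMUSG00000025068, chr19:47854970-47864790), which reduces dehydroascorbate and also modifies signalling proteins of macrophages, had 50.3, 74.8, 47.0, 43.9 and 62.3 CPM in controls and 131, 230.0, 184, 220.0 and 153 CPM in IL-33 libraries. Every IL-33 library was above every control, with a log2 fold change of 1.72 ± 0.21 (adjusted p = 1.88e-06). Per length it went from 27.5 to 90.7 RPKM. Gsto2 rose by 1.07 ± 0.38 from 0.884 ± 0.392 to 1.96 ± 0.79 CPM with overlap, and not without IL-33 library 4 (0.86, adjusted p = 0.0559).

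The pi class is encoded by 3 neighbouring genes on chromosome 19. Gstp1 had 33.3, 28.7, 25.7, 29.3 and 30.5 CPM in controls and 45.0, 38.9, 38.0, 36.8 and 38.0 CPM in IL-33 libraries. It rose by 0.41 ± 0.08 without overlap, but was -0.04 with the offsets (adjusted p = 0.671). Gstp3 had 4.38, 3.83, 3.6, 3.85 and 2.66 CPM in controls and 25.2, 25.7, 20.1, 12.1 and 11.4 CPM in IL-33 libraries. All IL-33 libraries lay above all controls, and the rise of 2.34 ± 0.28 (adjusted p = 3.29e-06) was 1.61 with the offsets. Gstp2 did not pass, at 1.70 ± 0.86 against 2.07 ± 0.57 CPM.

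Whether reads can tell these copies apart depends on their sequence, so the first 60 coding bases are shown. They come from the GENCODE M21 transcripts, minus strand, with bases that differ from Gstp1 in capitals. This was chosen as the 60-base stretch where Gstp1 and Gstp2 differ most often, at 6 bases. Each stretch spans an intron, and the outer positions are chr19:4037374-4037863 for Gstp1, chr19:4041668-4042165 for Gstp2 and chr19:4058819-4059424 for Gstp3.
Gstp1: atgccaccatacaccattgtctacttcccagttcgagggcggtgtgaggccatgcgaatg
Gstp2: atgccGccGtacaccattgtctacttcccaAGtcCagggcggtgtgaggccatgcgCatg
Gstp3: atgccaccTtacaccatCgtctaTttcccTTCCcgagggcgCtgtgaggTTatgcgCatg
Over 633 coding bases Gstp1 and Gstp2 differ at 12, with an identical run of 303 bases, and 65.3% of 75-base windows are the same in both. Multiply aligned reads were counted for no gene, so Gstp1 and Gstp2 can both be undercounted where they are identical. The length of reads was not given, and the 75-base window was chosen. Gstp3 differs from each of the other 2 genes at 180 bases, is 71.6% identical and shares no 75-base window with either.

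In the theta class the changes were small. Gstt2 (0.55 ± 0.10) and Gstt3 (0.50 ± 0.09) rose without overlap. Gstt1 had 69.5, 62.9, 69.7, 64.7 and 59.5 CPM in controls and 58.2, 50.3, 57.0, 61.1 and 59.6 CPM in IL-33 libraries. It fell by 0.19 ± 0.07 with overlap, and this was lost without control 1 or 3 or IL-33 library 1, 2 or 3 (adjusted p 0.0505 to 0.0698), but was 0.65 with the offsets.

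Several transferase genes are known targets of NRF2, which acts through the antioxidant response element, so TGACNNNGC was searched on both strands in the same promoters. It stood in 6 of the 144 (4.17%) and in 11.5% of all genes with a promoter. Among genes that passed the test these were Gsta3, which fell, and Cyp4f18 and Aldh1a2, which rose, while Gstm5 and Gstm7 did not pass. The 3 stretches are shown because the same letters stood before genes that moved in both directions, with the match in capitals. Gsta3 is chr1:21240438-21240497 (plus strand), Cyp4f18 is chr8:72009733-72009792 (minus strand) and Aldh1a2 is chr9:71215651-71215710 (plus strand), from RefSeq on GRCm38.p6.
Gsta3: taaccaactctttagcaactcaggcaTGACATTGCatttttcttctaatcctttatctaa
Cyp4f18: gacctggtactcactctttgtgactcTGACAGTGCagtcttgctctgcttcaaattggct
Aldh1a2: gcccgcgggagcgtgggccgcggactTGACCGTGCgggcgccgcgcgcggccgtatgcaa
The matches begin 121, 140 and 112 bases before the gene start.

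Sulfotransferases transfer sulfate to phenols, steroids and amines, and 4 of 21 were tested while 10 had no read. Sult1a1, a phenol sulfotransferase, had 51.6, 49.2, 61.4, 77.5 and 83.2 CPM in controls and 33.5, 31.5, 31.8, 30.9 and 38.6 CPM in IL-33 libraries, a fall of 0.96 ± 0.16 without overlap. Sult1d1, which sulfates catecholamines, had 14.6, 26.9, 7.10, 13.3 and 20.2 CPM in controls and 0.493, 4.36, 2.72, 5.30 and 3.86 CPM in IL-33 libraries. It fell by 2.26 ± 0.66 without overlap, from controls that varied widely. Sult5a1 had 8.48, 11.1, 11.5, 13.6 and 13.6 CPM in controls and 15.5, 14.9, 15.8, 17.5 and 19.2 CPM in IL-33 libraries, a rise of 0.52 ± 0.14 without overlap. Sult2b1, a cholesterol sulfotransferase, did not pass (-0.36 ± 0.25). Sult4a1 was too low to test, with 0.167 ± 0.125 CPM in controls and 1.21 ± 0.47 CPM in IL-33 libraries without overlap.

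Glucuronosyltransferases were low throughout. None of the 10 Ugt2 genes was tested and 6 had no read, with family sums of 0.0707 to 0.338 CPM in controls and 0 to 0.297 CPM in IL-33 libraries. Of 9 Ugt1 genes, which share their last exons, 2 were tested. Ugt1a7c had 3.39, 2.52, 2.93, 2.63 and 2.37 CPM in controls and 2.37, 1.38, 1.30, 1.71 and 3.57 CPM in IL-33 libraries. Neither it (-0.39 ± 0.27) nor Ugt1a6a (-0.51 ± 0.34) passed, although without IL-33 library 5 Ugt1a7c was lower (-0.70, adjusted p = 0.0147). Exons of other genes on the same strand overlap 54.6% and 50.3% of their exonic bases, and reads there are counted as ambiguous.

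The genes around these enzymes were read from 5 lists of electron donors and other oxidoreductases, hydrolases, conjugation partners, efflux transporters and sensors. Of 75 genes 65 were tested, of which 15 rose and 33 fell, with a median of -0.30. Over all tested genes 35.1% rose and 34.8% fell, with a median of -0.01. Among 22 oxidoreductases 12 fell and 6 rose. Cbr2, a carbonyl reductase abundant in lung, went from 2822.2 ± 268 to 1131.3 ± 184 CPM, a fall of 1.32 ± 0.12 that was the largest of its list, while the aldo-keto reductase Akr1b8 rose by 1.00 ± 0.13. Por, the reductase that passes electrons to every microsomal P450, was added after its values were seen, and went from 324 ± 36.7 to 175 ± 17.8 CPM (-0.89 ± 0.10).

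Of 5 tested hydrolases 3 fell and 1 rose, where 34.8% of all tested genes fell and 35.1% rose. The microsomal epoxide hydrolase Ephx1 fell by 1.13 ± 0.10 and butyrylcholinesterase (Bche) by 1.94 ± 0.18, while the paraoxonase Pon2 rose by 0.37 ± 0.06. Of 19 conjugation partners 7 rose and 6 fell, shares near those over all tested genes, or 6 and 7 with the offsets. The microsomal transferase Mgst2 had the largest rise (0.99 ± 0.11). The amine methyltransferase Inmt had the largest fall, from 1882.7 ± 118 to 957 ± 126 CPM (-0.98 ± 0.10). Gclc, the catalytic subunit of the rate-limiting enzyme of glutathione synthesis, was named after its values were seen, and rose from 147 to 248 CPM. The partner subunit Gclm fell from 56.2 to 43.7 CPM (-0.36 ± 0.04). Of 6 tested efflux transporters 4 fell and 2 did not pass. With the offsets 2 fell, Abcc4 (-0.21) and Abcg2 (-0.05) lost the call and Abcc1 was higher (0.33). Those that fell include Abcb1a, which encodes a P-glycoprotein (-1.48 ± 0.17), and Abcc3 (-1.16 ± 0.10).

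Of 13 tested sensors and regulators 8 fell and 1 rose, where 34.8% of all tested genes fell and 35.1% rose. Ppara, a fatty acid receptor that induces Cyp4a genes, went from 3.84 ± 1.73 to 1.31 ± 0.61 CPM (-1.51 ± 0.49), and Pparg rose by 0.90 ± 0.13. Cebpb, the most abundant per length, did not pass (0.34 ± 0.22) but did without control 1 or IL-33 library 5 (adjusted p 0.0376 and 0.0373). Named after their values were seen, Ahr went from 146 ± 17.7 to 106 ± 19.1 CPM (-0.47 ± 0.15) and Nfe2l2, which encodes NRF2, from 192 ± 23.3 to 122 ± 9.38 CPM (-0.65 ± 0.09). The liver sensors Nr1i2 (PXR) and Nr1i3 (CAR) were below 1 CPM on average in both groups and were not tested.

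Cell type markers moved with the groups as well, in a comparison where 35.1% of all tested genes rose and 34.8% fell. No club cell or alveolar marker was at 0 in any library, so the defining markers of the labelled tissue were present throughout. Of 9 tested club cell markers 4 fell and 5 rose, or 4 and 2 with the length and GC offsets, and their summed level was 17335.0 to 19367.9 CPM in controls and 11521.1 to 13518.0 CPM in IL-33 libraries. Most of that sum is Scgb1a1, the main club cell secretory protein, which changed by -0.51 ± 0.05 (-1.47 with the offsets) beside -2.0 for Cyp2f2 (-2.32 with the offsets). Another club cell marker, Scgb3a2, fell by 3.03 ± 0.38 (-3.76 with the offsets), while Muc5b rose by 1.74 ± 0.53 (2.06 with the offsets). None of these marker changes was tested against that of Cyp2f2. All 8 goblet cell markers rose, from sums of 9.10 to 119 CPM up to 1136.0 to 3396.8 CPM, and Gp2 among them was at 0 in control 4.

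Of 8 alveolar type 1 markers 7 fell (5032.9 to 5617.6 CPM against 2304.8 to 2920.5), as did 6 of 8 endothelial markers (6018.6 to 6691.2 against 2649.2 to 3567.5 CPM). Of 10 alveolar type 2 markers 7 fell and 2 rose, Sftpd by 1.11 ± 0.06 and Sftpa1 by 0.38 ± 0.07. With the offsets 8 of the type 2 markers fell and 1 rose. The type 2 sums overlapped (20145.1 to 23124.4 against 17399.6 to 20827.7 CPM). Of 5 eosinophil markers 4 rose and 1 fell, with sums of 13.9 to 15.8 against 59.3 to 74.5 CPM, and Epx was at 0 in 4 of the 5 controls. These values accompany the falls and rises of the enzyme genes, and their part in them was not tested.

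Several enzymes with widely spread controls shared the same high libraries. Cyp2a5, Cyp2e1, Sult1d1 and Cyp4a12b were each highest in controls 2 and 5. The summed level of 6 cardiac muscle markers was also highest there, at 912, 2046.1, 970.0, 541 and 1718.5 CPM in controls 1 to 5, and 199 to 567 CPM in IL-33 libraries. All 6 cardiac and all 5 smooth muscle markers had their highest control values in controls 2 and 5, as did 5 of 10 club cell markers (Scgb3a2, Scgb3a1, Lypd2, Chad and Muc5b), 4 of 10 ciliated cell markers and 11 of the 64 tested enzyme genes. The share of all tested genes that were highest in controls 2 and 5 was not computed, so these counts do not set the listed genes apart. The part of these cell types in the enzyme values was not tested. With controls 2 and 5 both left out, an alternative chosen after seeing the data, Sult1d1 still fell by 1.81, and Cyp2e1 was at -0.63 (adjusted p = 0.297). The 7 hepatocyte markers summed to 1.04 to 9.91 CPM in controls and 0.234 to 0.817 in IL-33 libraries, and control 3 was the highest of these. Without those 2 controls 15 genes rose and 31 fell. The 15 include Sult4a1 (2.26), which had too few reads to be tested with all libraries. It passed the filter here because a smaller group needs fewer libraries with reads, and did so through the IL-33 libraries where it was high. Its call is therefore no support for a rise. With the same 2 controls left out, the calls of Cyp1b1, Cyp2e1, Cyp3a13, Cyp4f16, Gsta2 and Gsto2 were lost, and that of Aldh1b1 was gained.

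**Figure D4:**
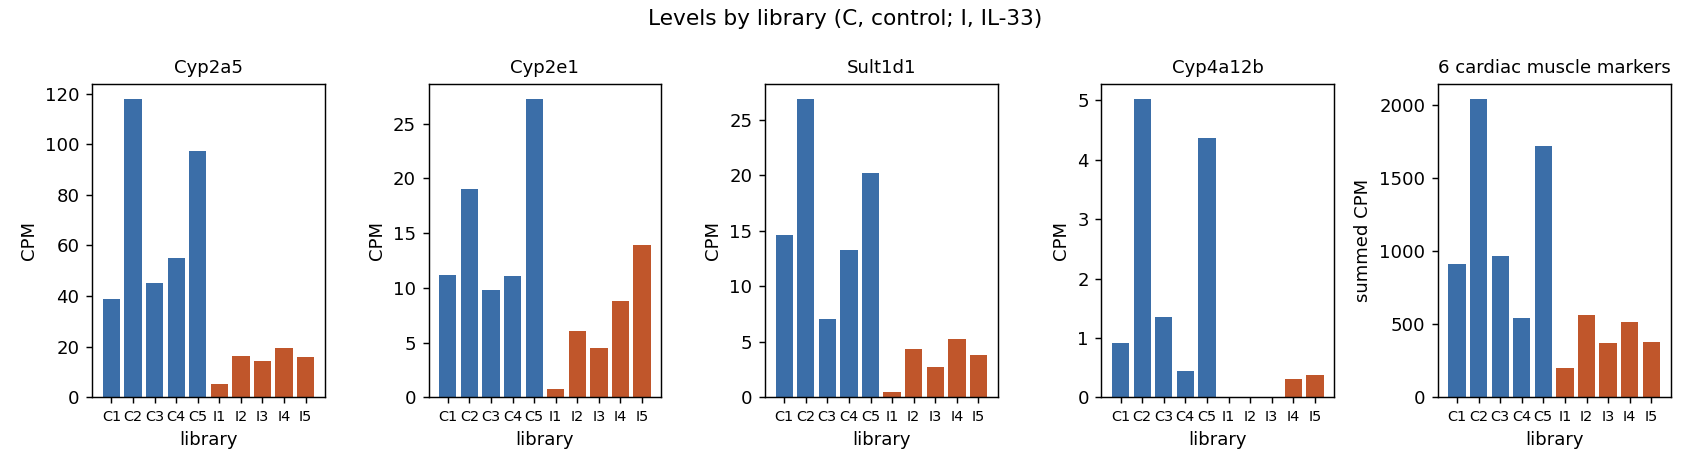
CPM of Cyp2a5, Cyp2e1, Sult1d1 and Cyp4a12b and the summed CPM of 6 cardiac muscle markers in each library (C, control; I, IL-33). Controls 2 and 5 are the highest of the controls in all 5 panels, for example 118.0 and 97.3 CPM for Cyp2a5.

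The 109 genes that were not tested had few or no reads. No read was counted for 49 of them, and 60 had reads. Apart from Cyp4a12b, no untested gene averaged above 0.836 CPM, the level of Cyp2ab1.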

How the data were processed

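The labels describe polyA-selected lung RNA made into stranded libraries. The submitters' processing notes name FastQC 0.11.6, MultiQC 1.6, STAR 2.5.4b, HTSeq 0.9.1 and GRCm38. The annotation release, the strand setting and the length of reads were not given in the sources used here. Overlapping or antisense genes could share reads. The deposited files hold raw counts per gene, without normalization. Entries naming no gene (27.0% to 37.0% of records) entered neither library sizes nor tests. Symbols and exonic lengths came from GENCODE M21, matching 53360 of 53465 genes.

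All 10 libraries, grouped by the treatment label, were fitted together with the quasi-likelihood test of edgeR 4.0.16 in R 4.3.3, on group alone, after filterByExpr and TMM scaling (0.969 to 1.03). The SE is that of log2(CPM + 0.1) over 5 and 5 libraries. Nothing but the labels separates the animals, so p-values set the group difference against the spread between these samples within groups. Library pairs within a group differed beyond sampling noise (chi-square per degree of freedom 5.09 to 27.6), and none was a duplicate. Alternatives were DESeq2 1.42.0 and its size factors, limma-voom (limma 3.58.1), library size alone, 2 other filters, length and GC offsets, a replicate block, a test against a 1.5-fold change and leaving out each library. The fit was tested on simulated data. Every enzyme gene averaging at least 1 CPM is named, except 1 that is counted but not reported here. Values in every library are given for the gene highest per length and the largest called rise and fall of each family, and of the surrounding lists the largest called rise, largest called fall and most abundant gene per length are named. Genes and lists were chosen with earlier results of these data known, and values in every library of other genes were added after they were seen.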

Additional observations from a re-analysis of the deposited data

Results flagged for a closer look

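In 9 of 154 groups of 5 libraries, 1 library's gap to its nearest neighbour was more than 0.71 of the group's range, which chance gives in about 1 in 20 groups. Aldh1a3 was 2.30 CPM in control 2, where the other controls had 1.01 to 1.23. Ces1g was 5.50 CPM in control 5 (others 2.12 to 2.41), and Ugt1a6a was 2.09 CPM there (others 1.13 to 1.35). Cyp4f17 was 10.4 CPM in control 4 (others 5.52 to 6.74). Control 3 was low for Cyp4f16, at 17 CPM (others 17.9 to 18.3), and for Abcc3, at 52.8 CPM (others 59.4 to 61.5). Among IL-33 libraries, Cyp4f39 was 2.02 CPM in library 4 (others 0.987 to 1.26), Gstm7 6.54 CPM in library 2 (others 3.63 to 3.97) and Gstp1 45.0 CPM in library 1 (others 36.8 to 38.9).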

How the results depend on the processing

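The enzyme counts (16 higher, 34 lower) stayed within 1.5 times under every alternative except the test against a 1.5-fold change, which left 7 higher and 20 lower, and 6 higher and 11 lower among the surrounding genes, as a stricter threshold must. Leaving out 1 library gave 13 to 16 higher and 32 to 35 lower, and 15 to 17 and 30 to 33 for the surrounding genes. Gstp1 turned to -0.04 with length and GC offsets, alone and with the replicate block, and the cause was not tested. Gsta2 was -1.51 with the offsets and the block. DESeq2 lost the calls of Aldh1l2, Cyp2e1 and Cyp4f16. Correlations of same-numbered deviations were -0.0692 to 0.231, and 4 of 10 samples were closest to their own number. Whether replicate numbers pair the samples was not tested. The replicate block gave 16 higher and 34 lower, and 16 and 32 for the surrounding genes, losing Cyp4f16 (0.19, adjusted p = 0.0569) and gaining Gstm5 (0.29, adjusted p = 0.0478) and Cebpb (0.31, adjusted p = 0.0479). Depth limits the 60 enzyme genes with reads that were too low to test.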
